A study of Mus musculus with 6 samples.

Results

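Toll-like receptors are membrane proteins with which macrophages sense microbial lipids, proteins and nucleic acids. Tlr1, Tlr2, Tlr4 and Tlr6 act mainly at the cell surface, where Tlr2 pairs with Tlr1 or Tlr6 to bind lipoproteins and Tlr4 binds lipopolysaccharide with the help of Ly96 and Cd14. Tlr3, Tlr7, Tlr8, Tlr9 and Tlr13 read RNA or DNA inside endosomes and lysosomes, and Unc93b1 is the chaperone that carries these endosomal receptors out of the endoplasmic reticulum. Most of them signal through the adaptor Myd88, while Tlr3 uses Ticam1 and Tlr4 uses both.

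The 9 receptor genes and Unc93b1 were chosen by symbol from the deposited table, and all 10 were found among 35414 genes whose values could be read. Bone marrow-derived macrophages (BMDMs), grown with M-CSF from the femurs of C57BL/6 mice, were sequenced in 3 Ctrl libraries without treatment and 3 libraries taken 12 h after stimulation with ZA (zoledronic acid, a bisphosphonate drug against bone loss). The wild-type C57BL/6 mice that the study obtained were 6-week-old females, but the age at which marrow was taken and the ZA concentration used for these libraries were not given in the sources used here. Nor do the labels say whether the 3 libraries of a group came from separate mice or cultures, so p-values measure only the spread between these libraries, which may be technical. The study asked, among other things, whether ZA acts on macrophages through Tlr4, and the comparison here is of transcript levels alone.

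Expression is given as FPKM, that is, fragments per 1000 bases of the gene and per 1000000 fragments of the library. The libraries held between 41230600 and 42155808 fragments, and at the median gene length 3 fragments, taken as the smallest amount that can be seen, are an FPKM of 0.0210. The macrophage label fitted the markers, since all 7 macrophage markers were found, with a summed FPKM of 23403 to 27310 in Ctrl and 24287 to 27767 in ZA, of which Lyz2 made up 88.4%. Beneath this sum Adgre1 (F4/80) had an FPKM of 532 ± 5.93 in the Ctrl group and 581 ± 13.4 in the ZA group, and the M-CSF receptor gene Csf1r had 772 ± 4.93 and 835 ± 11.9 (SD, 3 libraries a group), with log2 fold changes of 0.13 and 0.11 and groups that did not overlap (adjusted p = 0.0785 and 0.0699 from limma). Fcgr1 was at 102 and 112 in the group means with overlapping groups (log2 fold change 0.13, adjusted p = 0.575). The other macrophage markers differed less, with log2 fold changes of 0.02 for Cd68, 0.03 for Itgam, 0.03 for Lyz2 and -0.03 for Mertk. Their adjusted p-values from limma were 0.736, 0.691, 0.899 and 0.744. Markers of neutrophils and their progenitors summed to 32.5 to 47.5 in Ctrl and 29.4 to 34.4 in ZA, with 5 of 8 at a mean FPKM of at least 1 and Ly6g at 0 in every library. All 5 were lower in the ZA mean. Groups did not overlap for Mpo, Elane and Ngp, with log2 fold changes of -0.38, -0.27 and -0.27. Their unadjusted p-values from limma were 0.00136, 0.00146 and 0.0342, and the adjusted ones 0.110, 0.110 and 0.360. Mpo was at 2.51 ± 0.196 in Ctrl and 1.70 ± 0.289 in ZA. S100a8 and S100a9 had overlapping groups and log2 fold changes of -0.22 each (adjusted p = 0.432 and 0.623 from limma). Stromal markers summed to 18.2 to 32.7 in Ctrl and 16.3 to 23.5 in ZA, with 4 of 5 at a mean FPKM of at least 1. Sums for T and NK cell markers were 8.71 to 9.21 in Ctrl and 8.51 to 9.95 in ZA, nearly all of it from Cd4. B cell sums were 2.33 to 3.04 in Ctrl and 2.07 to 2.32 in ZA, plasmacytoid dendritic cell sums were 2.79 to 2.99 and 2.83 to 3.47, and conventional dendritic cell sums were 0.226 to 0.342 and 0.366 to 0.460. The part of these cells in the values below was not tested, and fewer cells of a type cannot be told apart from less RNA per cell.

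The sequences before the start sites of Tlr2 and Tlr9 are shown first because these were the receptor genes with the lowest p-values. They come from RefSeq on the build GRCm38.p6, where 7 of the 10 genes had an entry (all but Tlr4, Tlr7 and Unc93b1). The Tlr2 stretch lies at chr3:83841768-83841858 on the minus strand, from 250 to 160 bases before the RefSeq start, and ends where the exon of Tlr2 in GENCODE M21 begins. The Tlr9 stretch lies at chr9:106222348-106222597 on the plus strand, over the 250 bases before the start. Capitals mark every match to the motifs searched, and both stretches are written 5′ to 3′ along the gene.
Tlr2: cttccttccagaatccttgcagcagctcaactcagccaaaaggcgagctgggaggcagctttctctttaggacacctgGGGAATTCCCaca
Tlr9: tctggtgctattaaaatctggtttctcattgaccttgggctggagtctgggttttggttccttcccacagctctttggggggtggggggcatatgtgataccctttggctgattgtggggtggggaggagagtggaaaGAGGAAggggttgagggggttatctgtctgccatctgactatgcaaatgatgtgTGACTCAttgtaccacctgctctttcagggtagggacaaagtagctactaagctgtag

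In Tlr2 the capitals are a match to the kappaB core, the letters that NF-κB binds, searched on both strands, like the other motifs, as GGG, any 2 bases and then TTTCC or TTCCC. Among 32851 windows of the 250 bases before a start, 2.82% hold such a match, while the Tlr2 stretch shown is only 91 bases long. The capitals in Tlr9 are the core of the sites of PU.1, GAGGAA, which 23.3% of windows hold, and the AP-1 site TGANTCA, which 6.75% hold. The interferon response core, GAAA, any 2 bases and GAAA, in 2.98% of windows, was found before 1 of the starts of Tlr6 and in neither stretch above. A kappaB match also lay before Tlr3, and PU.1 cores lay before Tlr1, Tlr8 and Tlr13. No motif overlapped a different one in these windows, and a match is a description of the letters, not a site at which binding was measured.

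The 10 genes spanned a wide range of levels in Ctrl BMDMs. Unc93b1 stood highest, with an FPKM of 565 ± 3.49 (SD, n = 3), which is above 99.1% of the 9797 genes tested. Among the receptors the RNA sensors of the endosome led, with Tlr13, a receptor for bacterial ribosomal RNA, at 111 ± 2.46, Tlr8 at 77.9 ± 0.668 and Tlr7, which reads single-stranded RNA, at 62.3 ± 1.29. The surface receptor Tlr2 followed at 36.2 ± 1.18.

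Tlr1 at 32.5 ± 0.692 and Tlr9, the receptor for unmethylated CpG DNA, at 31.8 ± 0.516 were the only neighbours in this order whose Ctrl libraries overlapped. Tlr4 stood below them at 20.2 ± 0.295, Tlr6 at 6.88 ± 0.181 and Tlr3, the receptor for double-stranded RNA, at 3.02 ± 0.158. In ZA the order was the same except that Tlr9 passed Tlr1, again with overlapping libraries. The 5 endosomal receptors held between 74.5% and 75.4% of the summed FPKM of the 9 receptors in Ctrl, and between 74.2% and 74.7% in ZA.

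**Figure D1:**
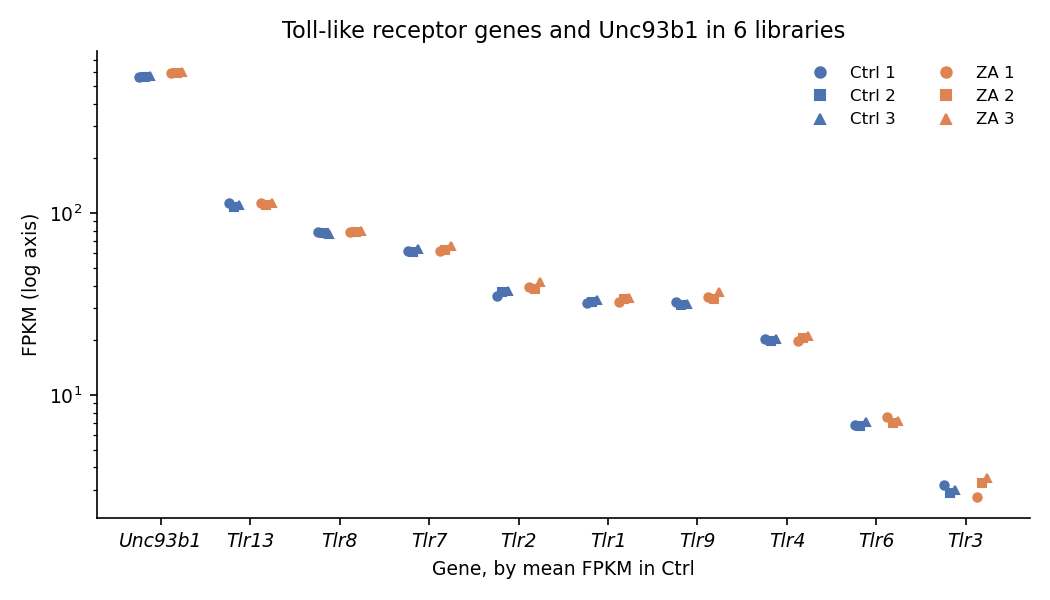
FPKM (log axis) of the 10 genes, ordered by their Ctrl mean, with 1 point for each of 3 Ctrl (blue) and 3 ZA (orange) libraries. Levels run from 3.02 for Tlr3 to 565 for Unc93b1 in the Ctrl mean, and Tlr1 and Tlr9 are the only neighbours whose points overlap within a group.

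The order depends on the gene length used. The lengths behind the deposited FPKM, as recovered from the values, were 8411 bases for Tlr4 and 5385 for Tlr8, against 5556 and 3586 bases of exon in GENCODE M21 (GRCm38), an annotation of another build than the mm9 named in the submitters' processing notes. With the GENCODE lengths and the same fragments, Tlr8 at 116 to 118 over the Ctrl libraries stood above Tlr13 at 101 to 106, and Tlr4 moved from 20.2 to 30.5, just under Tlr1 at 31.5. Unc93b1 stood first in this order too, at 416, and Tlr6 and Tlr3 were again last. The ratio of ZA to Ctrl FPKM does not depend on this length.

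Tlr1 and Tlr6 are close relatives on chromosome 5, and 4.30% of the 150-base stretches of Tlr1 and 3.86% of those of Tlr6 are identical in both, so a small part of their fragments may have been split between them. The other 8 genes shared no such stretch with another gene. Tlr7, Tlr8 and Tlr13 lie on chromosome X, Tlr2 on 3, Tlr3 on 8, Tlr4 on 4, Tlr9 on 9 and Unc93b1 on 19. Tlr3 overlaps Gm45542 on the opposite strand, and whether strand was used in counting was not given in the sources used here.

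ZA and Ctrl libraries differed little in these genes. On the log2(FPKM + 1) scale every one of the 10 had a higher mean in ZA, by between 0.02 for Tlr8 and 0.13 for Tlr9, with a median of 0.05 against 0.01 over all genes tested, of which 56.9% had a higher mean in ZA. None of the 10 passed limma with Benjamini-Hochberg adjustment over 9797 genes, where 0.367% of genes passed, and the lowest adjusted p was 0.192, for Unc93b1. None passed with voom on the recovered fragments either. At an unadjusted p under 0.05, 3 of the 10 were higher in ZA, namely Tlr2, Tlr9 and Unc93b1, while 7.5% of all genes tested were higher and 4.85% were lower. The same 3 stayed under 0.05 in all 14 alternatives, which draw on the same 6 libraries.

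In 4 of the 10, Tlr2, Tlr8, Tlr9 and Unc93b1, all ZA libraries lay above all Ctrl libraries, which held for 11.4% of the genes tested. The direction was the same with each library centred on its median and with quantile normalization, although over all genes these scalings moved the split at an unadjusted p under 0.05 from 735 higher and 475 lower to 507 and 667, and to 574 and 589.

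**Figure D2:**
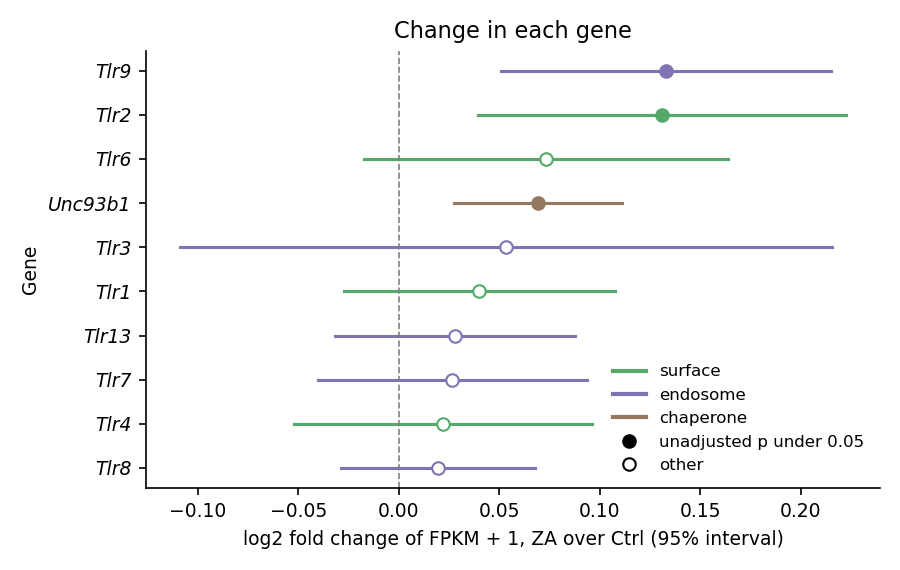
Difference in log2(FPKM + 1), ZA minus Ctrl, for each gene, with its 95% interval from limma (3 libraries a group) and a filled point where the unadjusted p was under 0.05. All 10 points lie right of 0, and the intervals of Tlr2, Tlr9 and Unc93b1 do not reach it.

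Among the surface receptors Tlr2 had the largest difference. Ctrl 1, 2 and 3 had an FPKM of 34.9, 36.7 and 37.1, and ZA 1, 2 and 3 had 39.2, 38.3 and 42.0. All ZA libraries were above all Ctrl libraries, and the gap between the closest of them was smaller than the gap between Ctrl 1 and Ctrl 2. The log2 fold change was 0.13 (standard error 0.04), with an unadjusted p of 0.0107 and an adjusted p of 0.247 from limma.

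Tlr1, which pairs with Tlr2 for triacylated lipoproteins, had an FPKM of 31.9, 32.3 and 33.3 in Ctrl and 32.5, 33.7 and 34.0 in ZA. Tlr6, the partner of Tlr2 for diacylated lipoproteins, was at 6.86, 6.71 and 7.07 in Ctrl and 7.60, 7.05 and 7.22 in ZA. Both genes overlapped between groups, with log2 fold changes of 0.04 for Tlr1 (adjusted p = 0.615) and 0.07 for Tlr6 (adjusted p = 0.487). The ratio of Tlr2 to Tlr1 in FPKM was 1.09 to 1.14 in Ctrl and 1.14 to 1.23 in ZA, and that of Tlr2 to Tlr6 was 5.09 to 5.48 in Ctrl and 5.16 to 5.81 in ZA.

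Tlr4, the lipopolysaccharide receptor, was measured at 20.4, 19.8 and 20.3 in Ctrl and 19.8, 20.5 and 21.2 in ZA. Both groups overlapped, with ZA 1 the lowest and ZA 3 the highest of the 6 libraries. On the log2 scale it differed by 0.02 with a standard error of 0.03 (adjusted p = 0.823), and the 95% interval ran from -3.56% to 6.90% of FPKM + 1. Between 6867 and 7511 fragments stood behind each of these values.

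**Figure D3:**
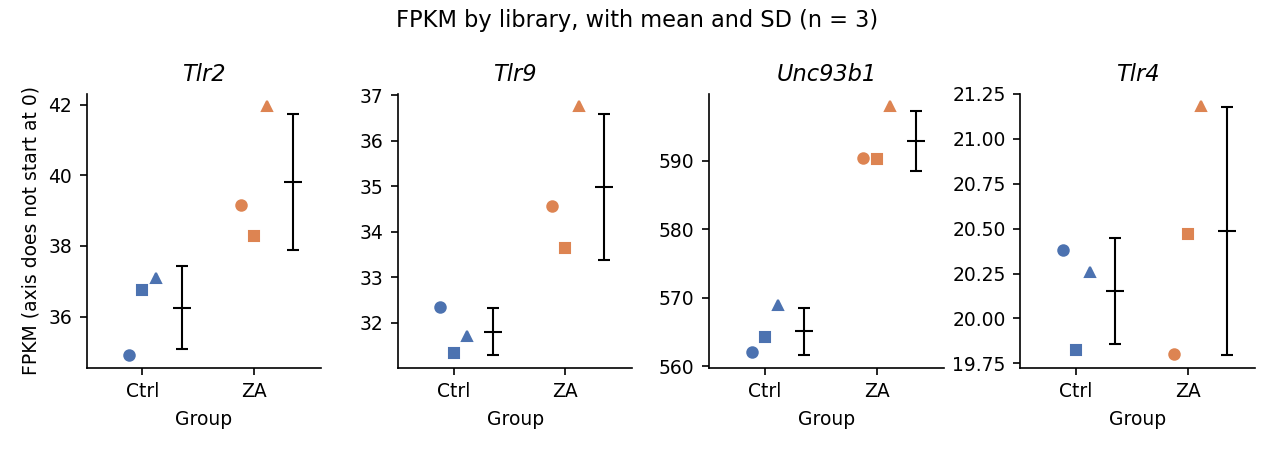
FPKM of Tlr2, Tlr9, Unc93b1 and Tlr4 in each library (circle, square and triangle for replicates 1, 2 and 3), with the mean and SD of each group in black (n = 3) on axes that do not start at 0. ZA lies above Ctrl in all libraries of the first 3 genes, and the groups overlap for Tlr4.

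Tlr9 had the largest difference of the endosomal receptors. The Ctrl libraries had an FPKM of 32.4, 31.3 and 31.7 and the ZA libraries one of 34.6, 33.6 and 36.8. No ZA library reached down to a Ctrl library, and ZA 3 stood highest. The log2 fold change was 0.13 (standard error 0.04), with an unadjusted p of 0.00564 and an adjusted p of 0.202 from limma.

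Tlr7 stood at 61.8, 61.4 and 63.8 in Ctrl and 62.1, 62.9 and 65.6 in ZA. Its genomic neighbour Tlr8 stood at 78.4, 78.1 and 77.1 in Ctrl and 78.5, 78.8 and 79.4 in ZA, with coefficients of variation of 0.858% and 0.584% that were the smallest of the receptors. The Tlr8 groups did not overlap, but only 0.02 separated them on the log2 scale (adjusted p = 0.751), and those of Tlr7 overlapped, at 0.03 (adjusted p = 0.751). Per library, Tlr9 was 0.497 to 0.524 of Tlr7 in Ctrl and 0.535 to 0.560 in ZA.

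Tlr13 was at 113, 108 and 110 in Ctrl and 114, 110 and 114 in ZA, with overlapping groups and a log2 fold change of 0.03 (adjusted p = 0.706). Tlr3, the lowest of the 10, was at 3.19, 2.87 and 3.01 in Ctrl and 2.76, 3.29 and 3.51 in ZA. Its ZA libraries were the most spread of any of the 10 genes, with a coefficient of variation of 12.1% and 576 to 749 fragments per library over both groups. The Tlr3 groups overlapped (log2 fold change 0.05, adjusted p = 0.804), and its interval was the widest, from -7.29% to 16.1% of FPKM + 1.

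Unc93b1 had the lowest p-value of the 10. The Ctrl libraries stood at an FPKM of 562, 564 and 569 and the ZA libraries at 590.4, 590.2 and 598, from 52224 to 56215 fragments per library. The groups were apart by more than the range of either, yet the difference was only 4.92% of the Ctrl mean. The log2 fold change was 0.07 (standard error 0.02), with an unadjusted p of 0.00499 and an adjusted p of 0.192 from limma. Set against the sum of the endosomal receptors that it carries, Unc93b1 lay between 1.94 and 2.0 in Ctrl libraries and between 2.0 and 2.04 in ZA libraries, and the groups overlapped.

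One ZA library stood out among the members. ZA 3 held the highest value of the 6 libraries for 9 of the 10 genes, and ZA 1 did so for Tlr6, whereas 21.1% of all genes tested were highest in ZA 3. Tlr2, Tlr9 and Tlr3 were 15.8%, 15.6% and 16.1% above their Ctrl means in ZA 3, against 5.62%, 5.77% and 8.69% in ZA 2 and 8.07%, 8.72% and -8.75% in ZA 1. Without ZA 3 the log2 fold change was 0.09 for Tlr2 (unadjusted p = 0.0314 from limma), 0.10 for Tlr9 (unadjusted p = 0.0138) and 0.06 for Unc93b1 (unadjusted p = 0.0158), and 8 of the 10 remained positive. Tlr3 and Tlr4 then turned to -0.0027 and -0.0014.

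The 9 interferon-stimulated genes measured were also highest on average in ZA 3. Their mean distance from the Ctrl mean, on the log2(FPKM + 1) scale, was -0.26, 0.02 and 0.24 in Ctrl 1, 2 and 3. In ZA 1, 2 and 3 it was -0.07, 0.37 and 0.77. For the 10 members the same measure lay between -0.02 and 0.01 over the Ctrl libraries, and ZA 1, 2 and 3 had 0.03, 0.04 and 0.10. The part of ZA 3 and of the interferon-stimulated genes in the differences above was not tested.

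**Figure D4:**
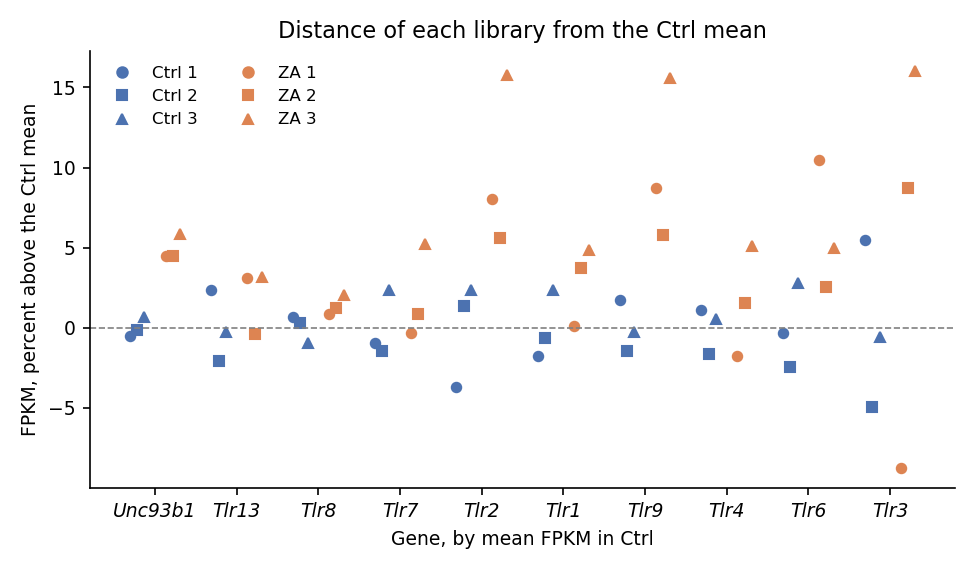
FPKM of each gene in each library as a percent above or below the Ctrl mean of that gene (Ctrl blue, ZA orange; circle, square and triangle for replicates 1, 2 and 3). The ZA 3 triangle is the highest point for 9 of the 10 genes, and in Tlr3 the ZA libraries lie on both sides of the Ctrl mean.

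The remaining mouse receptor genes were near the limit of detection. Tlr5, the flagellin receptor, had a mean FPKM of 0.0618 in Ctrl and 0.0618 in ZA, Tlr11 had 0.0449 and 0.0375, and Tlr12 had 0.101 and 0.0351. All 3 were below the mean FPKM of 1 that was required for the main test. In a limma fit without this filter, the log2 fold changes were 0.0002 for Tlr5, -0.01 for Tlr11 and -0.09 for Tlr12. For Tlr12 the unadjusted p was 0.0239 and the adjusted p 0.475, from 3 to 18 fragments per library.

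The co-receptors did not move one way. At an unadjusted p under 0.05, 2 of the 5 tested were higher in ZA and 2 were lower, and none passed the adjustment. Over all genes tested, 7.5% were higher and 4.85% lower at this threshold, and 56.9% had a higher mean in ZA. These shares stand beside the counts in the lists below too. Cd36, a fatty acid and lipoprotein receptor that presents ligands to Tlr2, had an FPKM of 169 ± 3.88 in the Ctrl group and 155 ± 6.57 in the ZA group (adjusted p = 0.194 from limma, with SD over 3 libraries here and below). Cd180, a receptor relative of Tlr4, was at 163 ± 2.56 and 156 ± 0.666 (adjusted p = 0.258), while Ly86, its secreted partner, was at 116 ± 0.735 and 122 ± 3.30 (adjusted p = 0.268). Lbp was below the filter. The direct partners of Tlr4, picked out after their values were seen, were Cd14 at 208 ± 1.97 and 226 ± 14.7 (adjusted p = 0.332) and Ly96 at 24.6 ± 1.28 and 23.1 ± 0.623 (adjusted p = 0.453).

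Of 10 genes for the folding and traffic of the receptors, 3 were lower and 0 higher at an unadjusted p under 0.05, and none passed the adjustment. The endoplasmic reticulum chaperone Hsp90b1, which folds most Toll-like receptors, was at 238 ± 6.06 in Ctrl and 226 ± 6.68 in ZA (adjusted p = 0.369). Rab7b, a small GTPase of late endosomes, was at 61.2 ± 0.239 and 58.4 ± 1.07 (adjusted p = 0.303), and Lrrc59, a protein of the endoplasmic reticulum, was at 52.4 ± 1.58 and 49.5 ± 0.797 (adjusted p = 0.327). Of the 10 genes, 6 had a higher mean in ZA and 4 a lower one, with a median log2 fold change of 0.0059.

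Among 10 endosomal proteases and nucleases, which cut the nucleic acid receptors or their ligands, 1 was higher and 3 were lower at an unadjusted p under 0.05, with none past the adjustment. The related exonucleases Pld3 and Pld4, which degrade ligands of Tlr9 and Tlr7, pointed opposite ways. Pld4 was at 325 ± 3.36 in Ctrl and 350 ± 5.77 in ZA (log2 fold change 0.11, adjusted p = 0.0945), and Pld3 was at 599.7 ± 5.15 and 556 ± 15.5 (log2 fold change -0.11, adjusted p = 0.114), with groups that did not overlap in either gene. The cathepsin Ctsb, a lysosomal protease, was at 4861 ± 28.3 and 4687 ± 41.6 (adjusted p = 0.30).

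Of 25 adaptors, kinases and transcription factors, 3 were higher at an unadjusted p under 0.05 (7.5% of all genes tested) and 0 lower (4.85%). A higher mean in ZA was found for 20 of the 25, against 56.9% of all genes tested, with a median log2 fold change of 0.03. Ikbke, a kinase of interferon regulatory factors, was at 45.9 ± 1.39 in Ctrl and 48.7 ± 0.581 in ZA (adjusted p = 0.284). The NF-κB subunit gene Nfkb1 was at 34.1 ± 0.246 and 36.2 ± 1.36 (adjusted p = 0.341). Irf7, the interferon regulatory factor downstream of Tlr7 and Tlr9, was at 29.2 to 38.8 in Ctrl and 35.0 to 58.3 in ZA, with overlapping groups (adjusted p = 0.370). The adaptor Myd88, picked out after its values were seen, was at 42.5 ± 1.14 and 44.2 ± 1.29 (adjusted p = 0.519).

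Of 10 inhibitors of the pathway tested, 8 had a higher mean in ZA, 3 were higher and 1 was lower at an unadjusted p under 0.05, and the median log2 fold change was 0.03. Irak3, a kinase relative that restrains Myd88 signaling, was at 12.9 ± 0.236 in Ctrl and 14.8 ± 0.658 in ZA without overlap (log2 fold change 0.19, adjusted p = 0.0965). Nfkbia, the inhibitor of NF-κB, was at 33.7 ± 1.23 and 36.0 ± 0.575 (adjusted p = 0.30). Dusp1, a phosphatase of MAP kinases, was at 7.35 ± 0.0828 and 6.17 ± 0.561 (log2 fold change -0.22, adjusted p = 0.175). Sigirr and Sarm1 were below the filter.

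Of 16 transcripts that Toll-like receptor signals induce, 8, namely Il6, Il12b, Il1b, Cxcl1, Cxcl2, Ptgs2, Ifnb1 and Nos2, had a mean FPKM under 1 over all 6 libraries and were not tested. Picked out after their values were seen, the cytokine gene Il1b was at 0.647 to 0.814 in Ctrl libraries and 0.925 to 1.38 in ZA libraries and the chemokine gene Cxcl2 at 0.663 to 0.753 and 0.941 to 1.29. In the limma fit without a filter their log2 fold changes were 0.34 and 0.31 (unadjusted p = 0.0120 and 0.00457). Neither passed the adjustment (adjusted p = 0.389 and 0.301), and the others of these 8 had an unadjusted p that was not under 0.05. Other chemokine genes stood higher, of which Ccl3 and Ccl4 were likewise picked out after their values were seen. Ccl3 was at 72.5 ± 3.48 and 76.5 ± 1.83 (adjusted p = 0.457). Ccl4 was at 38.5 to 48.3 in Ctrl libraries and 37.9 to 43.1 in ZA libraries (adjusted p = 0.708). Of the 8 tested, 3 were higher and 0 lower at an unadjusted p under 0.05, and the median log2 fold change was 0.10. Acod1, the itaconate-producing enzyme of activated macrophages, had an FPKM of 0.937 to 1.09 in the Ctrl libraries and 1.18 to 2.59 in the ZA libraries (log2 fold change 0.55, adjusted p = 0.236). Nfkbiz, a nuclear cofactor of NF-κB, was at 8.06 ± 0.475 and 9.68 ± 1.07 (adjusted p = 0.249), and Tnf was at 5.01 ± 0.391 and 5.69 ± 0.421 (adjusted p = 0.370).

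All 9 interferon-stimulated genes tested had a higher mean in ZA, with a median log2 fold change of 0.33, but only Irf7 had an unadjusted p under 0.05 and none had groups apart. Their mean distance from the Ctrl mean, given above, rose from replicate 1 to 3 in both groups. By this measure each ZA library was above the Ctrl library of its number, but the labels do not say whether such libraries were paired. Oasl2 was at 30.1 ± 3.47 in Ctrl and 38.5 ± 9.21 in ZA (adjusted p = 0.439), and Ifit3 was at 15.9 ± 3.74 and 23.1 ± 8.29 (adjusted p = 0.471). Of 10 other pattern receptors, 1 was higher and 1 lower at an unadjusted p under 0.05, with a median of 0.06. Clec7a, the beta-glucan receptor Dectin-1, was at 275 ± 4.96 and 252 ± 5.55 (adjusted p = 0.0941), Nod1, a sensor of peptidoglycan, at 6.76 ± 0.0851 and 7.45 ± 0.295 (adjusted p = 0.255), and the nucleic acid sensor Zbp1 at 10.1 in the Ctrl mean and 14.1 ± 4.38 in ZA (adjusted p = 0.413).

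The myeloid transcription factors showed 1 of 6 higher at an unadjusted p under 0.05. This was Spi1, which encodes PU.1, at 231 ± 5.25 in Ctrl and 241 ± 4.85 in ZA (adjusted p = 0.393). Runx1 stood at 10.6 ± 0.263 and 11.1 ± 0.216 (adjusted p = 0.540) and Mitf at 8.29 ± 0.0185 and 7.92 ± 0.398 (adjusted p = 0.583). Over all lists, 14 of 92 distinct genes tested were higher (15.2%, against 7.5% of all genes tested) and 10 lower (10.9%, against 4.85%) at an unadjusted p under 0.05, and 0 passed the adjustment of limma. The lists were chosen with earlier results of these data known, so these shares are a description and not a test.

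**Figure D5:**
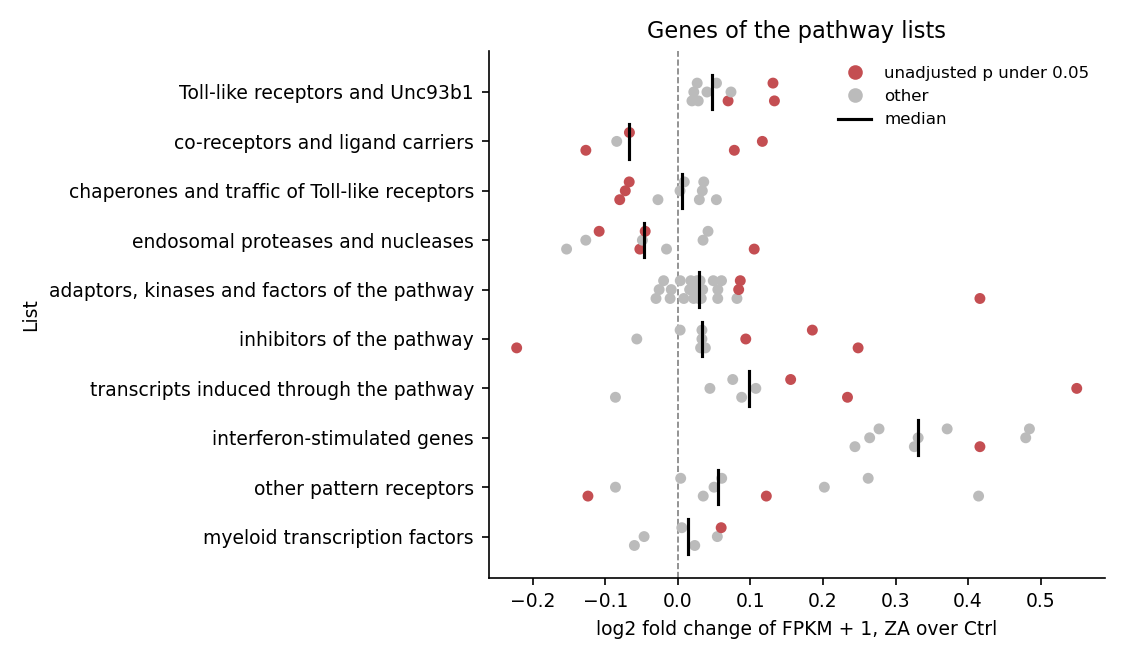
Difference in log2(FPKM + 1), ZA minus Ctrl, of each gene tested in the 10 Toll-like receptor and Unc93b1 genes and in the lists around them, with red points for an unadjusted p under 0.05 and a black bar at the median of each list. The members lie between 0.02 and 0.13, and the interferon-stimulated genes between 0.24 and 0.48.

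Over the 6 libraries, the genes whose log2(FPKM + 1) followed Tlr4 most closely were Arhgdib (Pearson's correlation 0.994, Spearman's rank correlation 0.943), the aminotransferase gene Gpt2 (0.988 and 1) and Zc3h15 (0.984 and 1). Those closest to Unc93b1 were Phka2, a subunit of phosphorylase kinase (0.998 and 1), the glycolytic aldolase Aldoc (0.998 and 1) and the fatty acid synthase Fasn (0.994 and 1). Of the 9796 genes compared, 18 had a Pearson's correlation over 0.95 with Tlr4 and 111 with Unc93b1. These are descriptions over 6 libraries that share the split into Ctrl and ZA.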

How the data were processed

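BMDM RNA was sequenced by the authors as 150-base paired-end reads from 3 Ctrl and 3 ZA libraries, with replicate numbers from the sample labels. The labels name a VAHTS and a SMARTER library kit. The authors deposited FPKM values per gene and library, a unit recorded here as other (neither a count nor a log value) because the separators between the columns were lost in all but 11 of 35434 rows. The submitters' processing notes name the build mm9, and the aligner and counter were not given in the sources used here. Symbol and values were separated by how the numbers are written and by the whole fragments they imply, over gene lengths of 20 to 250000 bases, which left out 20 rows and restored 99.6% of the fragments of each library. All 11 intact rows came back identical, and of 5000 simulated rows 4999 were restored and 0 were wrong.

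The 2 groups were tested with limma 3.58.1 under R 4.3.3 (eBayes with a trend, two-sided) on log2(FPKM + 1), for genes at a mean FPKM of 1 or more, with Benjamini-Hochberg adjustment over 9797 genes, after a test on simulated data. A change in a gene of low FPKM is understated on this scale. Named genes are all members, in each list the 3 genes that limma's moderated statistic ranked first, and the 3 closest in pattern to Tlr4 and Unc93b1. Genes below the filter, cell type markers and a few list genes picked out after their values were seen are named as well. Members and lists were chosen with earlier results of these data known. Libraries of a group were not duplicates, with a chi-square per gene of 3.52 to 9.72. Promoters and lengths were read with Python 3.11.15.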

Additional observations from a re-analysis of the deposited data

How the results depend on the processing

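The number of members at an adjusted p under 0.05 was 0 and at an unadjusted p under 0.05 was 3 in all 14 alternatives tried. Among all genes tested, 1210 of 9797 were at an unadjusted p under 0.05 in the main fit. The alternatives had 952 to 1504 of 9797, or 928 of 6604 at a mean FPKM of at least 5 and 1702 of 19360 without a filter. All of them drew on the same 6 libraries, so they are not independent. Tlr2 kept an adjusted p between 0.113 and 0.484, Tlr9 between 0.0962 and 0.439, and Unc93b1 between 0.105 and 0.439. With a mean FPKM of at least 5, Tlr3 left the test. Leaving out ZA 3 turned the log2 fold change of Tlr3 to -0.0027 and that of Tlr4 to -0.0014. Over the libraries left out in turn they reached 0.13 and 0.045, both without ZA 1. Over all genes, the count at an adjusted p under 0.05 was 36, against 1 without a filter, 20 after quantile normalization, 1 without a trend, 132 with voom, and 0 to 25 with 1 library left out (0 without ZA 2, 1 without Ctrl 1 or Ctrl 2, 4 without ZA 3, 6 without Ctrl 3). At an unadjusted p under 0.05 limma still had 973 genes without ZA 2. Genes of the lists at an unadjusted p under 0.05 numbered 24, and 14 to 36 with 1 library left out, the lowest without ZA 3. The causes of these shifts were not tested.

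A replicate block in the fit gave 78 genes at an adjusted p under 0.05 and no member among them (Tlr2 0.113, Tlr9 0.114, Unc93b1 0.126). Across genes, Ctrl and ZA libraries of the same number deviated from their groups with correlations of 0.284, 0.0394 and 0.28. All 6 libraries correlated best with their own number. The labels do not say whether libraries of the same number were paired or prepared together, and the main fit has no block. A shared effect of the number was not tested, and the p-values of the main fit do not allow for it. Levels set by the exon length of GENCODE M21, chosen after seeing the data, moved Tlr4, Tlr8 and the other genes as given above. With 3 libraries a group, the 95% intervals were as wide as -7.29% to 16.1% for Tlr3.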
